A study of Mus musculus with 56 samples.

Results

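The genes described here carry hepatic glucose and fructose handling at successive steps. They are Slc2a2 (uptake), Gckr (control of glucose phosphorylation), Khk (phosphorylation of fructose), and Pfkfb1 and Pfkfb3 (control of phosphofructokinase). The others are Pklr (the last step of glycolysis), Mlxipl (the sugar-responsive transcription factor ChREBP) and Txnip (a gene that responds to glucose). These 8 genes were chosen by name from the 25415 genes listed for mouse liver, and all 8 were among the 25386 that could be tested. Earlier results of these data were known when they were chosen. Shares of members called are therefore a description beside all genes, not a test of the group. Livers came from female C57BL/6J mice aged 9 weeks, housed at 12 h of light and 12 h of dark, that had been fed for 7 days only by day (DRF, daytime-restricted feeding) or only by night (NRF, nighttime-restricted feeding, the control regimen). Livers were sampled every 4 h from ZT0 to ZT24 (Zeitgeber time, in hours counted from the onset of light), from 4 mice per regimen and time, which gives 14 groups and 56 libraries of rRNA-depleted, strand-specific RNA. The labels name no genotype other than the strain, and all groups shared normal chow and the light cycle.

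Liver takes up glucose through GLUT2, the low-affinity transporter encoded by Slc2a2, and traps it by phosphorylation, a step under the control of the regulatory protein Gckr. Fructose is phosphorylated by ketohexokinase (Khk). The bifunctional Pfkfb enzymes make and break fructose 2,6-bisphosphate, the main allosteric activator of phosphofructokinase, and liver pyruvate kinase (Pklr) makes pyruvate. ChREBP is activated by sugar metabolites, pairs with Mlx and binds carbohydrate response elements, among them those of Pklr and Txnip, whose product restrains glucose uptake.

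Levels are given as scaled counts, a linear value rebuilt from the deposited scale for each library, on which all libraries are comparable for 1 gene. Genes were compared with each other only per kilobase of exon. One scaled count stood for between 304 and 723 recovered counts, and the 8 genes held between 2846 recovered counts (Txnip) and 476069 (Slc2a2) in a library. In units of 1 Mcount, the recovered counts of a library sum to between 306.8 and 688.7 and were not taken as reads, so no counting interval is given and the spread between the 4 mice is the error throughout. Replicates of a group correlated at between 0.9644 and 0.9901 over 13727 genes. Albumin (Alb), a hepatocyte product, held between 71459 and 125977 scaled counts in a library. Of the adipocyte and exocrine pancreas lists only Cfd (highest 0.0657) and Cela2a (highest 0.768) could be tested. In this bulk tissue, fewer cells of a type and less RNA per cell cannot be told apart. Erythroid markers summed to 567 to 2039 scaled counts under DRF and 469 to 1351 under NRF, and the rhythm-adjusted mean of all 5 differed between the regimens. Gene lengths entered as well: the rank correlation of a library's deviations with gene length had a group mean between -0.232 (DRF ZT8) and 0.181 (NRF ZT24), and was -0.124 at DRF ZT0 against 0.174 at DRF ZT24. Their part in the differences below was not tested beyond a fit with a length correction, whose effect is given where it changed a call.

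Per kilobase, the 8 genes ran from Khk at 134 scaled counts under DRF and 107 under NRF, through Slc2a2 (85.5 and 71.0), Pklr (21.8 and 18.4), Gckr (16.6 and 15.3), Mlxipl (14 and 16.8) and Txnip (7.03 and 6.07), down to Pfkfb1 (3.20 and 2.68) and Pfkfb3 (1.72 and 2.05).

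**Figure D1:**
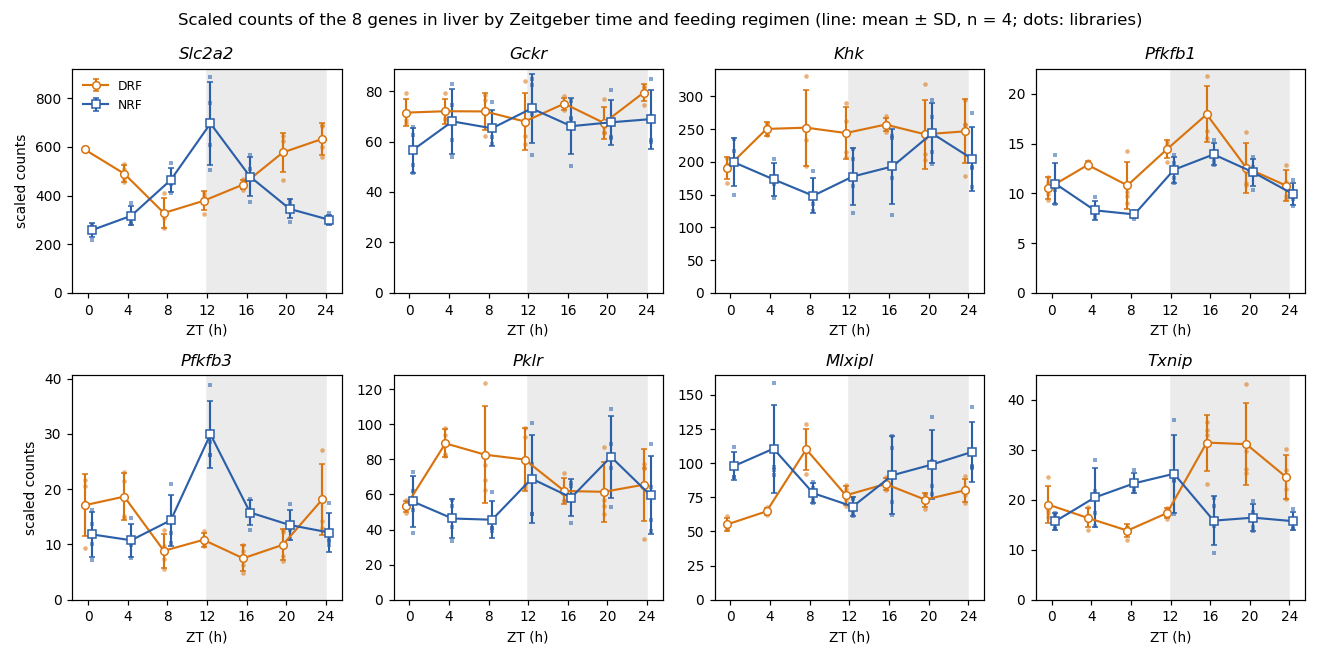
Scaled counts (vertical axis, from 0) of each of the 8 genes against Zeitgeber time in hours, with DRF in orange circles and NRF in blue squares. Lines join group means with SD (n = 4), small marks are single libraries and grey is the dark phase. Slc2a2 peaked at 633 at DRF ZT24 and 697 at NRF ZT12, while Gckr group means stayed between 56.6 and 79.4.

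The first question was which genes had a 24-h rhythm under each regimen, and whose rhythm differed between them. Under DRF 6 of the 8 genes had a 24-h rhythm (limma, adjusted p under 0.05), against 34.8% of all genes tested. Under NRF 7 of 8 did, against 43.1%, and the 6 that passed under DRF also passed under NRF, against 23.1% of all genes with both. Khk passed under NRF only and Gckr under neither. The rhythm itself differed between regimens for 6 of 8 genes, Slc2a2, Khk, Pfkfb3, Pklr, Mlxipl and Txnip, against 38.4% of all genes. These 6 differences held when any 1 of the 56 libraries was left out. All 8 members had a mean of at least 10 scaled counts, but only 6666 of all genes tested did. Differences of lower genes are pressed towards 0 on the scale of the tests. The shares of all genes, here and below, are thus not shares of genes of like level.

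RefSeq promoter windows (GRCm38.p6, 250 bases before to 50 after each start) were held for all 8 genes, 14 windows in all. They were searched on both strands for the E-box CACGTG and for the carbohydrate response element written loosely as CANGNG, 5 bases of any kind and CNCNTG. The E-box occurs in 7.15% and the element in 0.557% of all 32851 windows. Of the 14 windows 3 hold the E-box, 1 each of Pfkfb3, Khk and Mlxipl, and 1 holds the element, the liver start of Pklr. The other windows, among them those of Slc2a2, Gckr, Pfkfb1 and Txnip, hold neither, which says only that these letters are not in these windows. The element is the site ChREBP is known to bind. These 4 genes differed in rhythm between the regimens, but any link between a match and a rhythm was not tested. The 4 matches are shown with 40 bases on either side, the match in capitals.
Pklr: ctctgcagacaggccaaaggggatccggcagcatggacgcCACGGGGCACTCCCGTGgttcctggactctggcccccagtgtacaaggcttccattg
Pfkfb3: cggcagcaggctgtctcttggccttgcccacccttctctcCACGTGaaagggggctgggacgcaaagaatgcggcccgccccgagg
Khk: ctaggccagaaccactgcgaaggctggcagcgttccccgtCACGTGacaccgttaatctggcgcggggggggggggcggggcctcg
Mlxipl: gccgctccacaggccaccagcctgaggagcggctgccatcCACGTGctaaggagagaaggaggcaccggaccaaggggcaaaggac

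The Pklr stretch is chr3:89136413-89136509 on the plus strand, with the match from base -170 to -154 counted from the start. The Pfkfb3 stretch is chr2:11502098-11502183 on the minus strand, with the match at -53 to -48. The Khk stretch is chr5:30921448-30921533 on the plus strand, with the match at -71 to -66. The Mlxipl stretch is chr5:135089752-135089837 on the plus strand, with the match at -98 to -93, before an upstream start used by the isoform Mlxipl-210 and not that of Mlxipl-201. Slc2a2 and Txnip, whose rhythms also differed, have no match in these windows.

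Slc2a2 lies on chromosome 3 (GRCm38 chr3:28697903-28731359, plus strand). Under DRF it was highest around the end of the night and lowest at ZT8. The 4 mice held 595, 589, 584 and 590.2 scaled counts at ZT0, 529.7, 509.8, 454 and 467 at ZT4, 307, 265, 412 and 329.8 at ZT8 and 399.9, 381, 409 and 323 at ZT12. They held 438, 424, 449.9 and 469.8 at ZT16, 465, 576, 644 and 624 at ZT20 and 560.2, 598, 690.1 and 685 at ZT24. Every mouse at ZT0 and ZT24 stood above every mouse at ZT8, ZT12 and ZT16, while ZT20 overlapped both ZT24 and ZT16.

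Under NRF Slc2a2 ran the other way, with its maximum at lights off. Values were 216, 262, 270.4 and 280.4 at ZT0, 324, 369.5, 285 and 289 at ZT4, 466, 447, 532 and 412 at ZT8 and 506, 609, 889 and 783 at ZT12. They were 462, 567, 374 and 509 at ZT16, 341, 383, 293 and 364 at ZT20 and 286, 288, 301 and 328 at ZT24. The ZT12 mice spread widely, and the lowest of them overlapped ZT8 and ZT16, but all 4 exceeded every mouse at ZT0, ZT4, ZT20 and ZT24.

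The fitted peak of Slc2a2 was ZT 22.2 ± 0.479 h (SE) under DRF and ZT 12.3 ± 0.367 h under NRF, 9.94 ± 0.603 h apart. Its log2 amplitude was 0.44 ± 0.05 under DRF and 0.59 ± 0.05 under NRF, and the rhythms differed (limma adjusted p = 3.99e-16). At the same ZT, DRF minus NRF was 1.20 ± 0.13 (adjusted p = 2.3e-09) on the log2 scale at ZT0, 0.63 ± 0.13 (adjusted p = 0.000295) at ZT4 and -0.51 ± 0.13 (adjusted p = 0.00508) at ZT8. It was -0.85 ± 0.13 (adjusted p = 3.93e-06) at ZT12, 0.74 ± 0.13 (adjusted p = 4.91e-05) at ZT20 and 1.07 ± 0.13 (adjusted p = 4.41e-08) at ZT24, with no overlap of the groups at any of these 6 times, although at ZT8 the highest DRF and the lowest NRF mouse nearly met. The ZT8 call was lost on the deposited scale (adjusted p = 0.0533) and without the mice numbered 2 (0.0884). ZT16 alone missed the threshold, at -0.09 ± 0.13 (adjusted p = 0.752). The rhythm-adjusted mean was higher under DRF by 0.17 ± 0.05 (adjusted p = 0.0355), a difference lost without any of 9 single libraries (adjusted p up to 0.0684, without NRF ZT12 replicate 1) and on the deposited scale.

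Gckr (chr5:31297443-31327314, plus strand) passed no test with the settings used throughout. Its 28 libraries ran from lowest 59.0, median 71.9 and highest 84.0 scaled counts under DRF and from lowest 47.4, median 65.1 and highest 84.9 under NRF. Fitted amplitudes were 0.04 ± 0.05 (adjusted p = 0.86) and 0.07 ± 0.05 (adjusted p = 0.509). At the same ZT the differences lay between -0.10 and 0.34, each with an SE of 0.13. The largest, at ZT0, set 68.5, 70.7, 79.3 and 67.3 under DRF against 47.4, 50.7, 65.7 and 62.6 under NRF, which did not overlap, at an adjusted p of 0.0723 (0.0411 without NRF ZT0 replicate 3, 0.0441 on the deposited scale and 0.0486 among genes with a mean of at least 1 scaled count). ZT24 against ZT0 under NRF passed on the deposited scale (0.00237).

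Khk (chr5:30921431-30931248, plus strand) differed between the regimens in its mean level. The rhythm-adjusted mean was higher under DRF by 0.38 ± 0.07 (adjusted p = 0.000282). Under NRF the 4 mice held 178, 204, 145 and 166 scaled counts at ZT4 and 148, 135, 186 and 124 at ZT8, against 215, 294, 196 and 269 at ZT20. Under DRF they held 206, 197, 193 and 167 at ZT0, 242, 241, 258 and 260.0 at ZT4 and 234, 194, 332 and 249.7 at ZT8, and group means from ZT4 to ZT24 stayed between 242 and 257. NRF group means were lowest at ZT8, a time at which DRF mice were all higher.

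The Khk rhythm passed under NRF (amplitude 0.28 ± 0.08, peak ZT 20.2 ± 0.984 h, adjusted p = 0.00677) and not under DRF (amplitude 0.09 ± 0.07, adjusted p = 0.587). The test of the difference gave an adjusted p of 0.0204, lost on the deposited scale (0.0987) and without the mice numbered 1 (0.138), 2 (0.0601) or 4 (0.157). The NRF rhythm was lost without those numbered 2 (0.0947) or 4 (0.121). DRF was higher at ZT4 by 0.54 ± 0.19 (adjusted p = 0.0435) and at ZT8 by 0.75 ± 0.19 (adjusted p = 0.00563), both without overlap. The ZT8 call ended without the mice numbered 4 (adjusted p = 0.0838). The ZT4 call ended without any of 7 of the 8 libraries compared (adjusted p up to 0.127, without NRF ZT4 replicate 3), on the deposited scale and under the length correction.

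Pfkfb3 and Pfkfb1 make the same kind of enzyme, and their transcripts moved on different schedules. Pfkfb3 (chr2:11471433-11554077, minus strand), the inducible form with high kinase activity, was highest at the start of feeding or soon after. Under NRF it held 28.5, 26.3, 26.2 and 38.9 scaled counts at ZT12, above every mouse of every other NRF time, whose group means lay between 10.8 and 15.8. Under DRF it held 9.31, 16.8, 21.7 and 20.6 at ZT0 and 23.1, 21.4, 15.2 and 14.9 at ZT4, against 8.86, 4.78, 9.96 and 6.37 at ZT16. The ZT4 mice all exceeded the ZT16 mice, and 1 mouse at ZT0 overlapped them.

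The Pfkfb3 rhythm passed under both regimens (adjusted p = 0.000365 and 0.000631), with log2 amplitudes of 0.55 ± 0.11 under DRF and 0.50 ± 0.11 under NRF. Peaks were fitted at ZT 2.26 ± 0.822 h and ZT 13.1 ± 0.928 h, 10.8 ± 1.24 h apart, and the rhythms differed (adjusted p = 1.08e-06). DRF minus NRF was -1.37 ± 0.26 (adjusted p = 0.000128) at ZT12, the largest same-time difference of the 8 genes, and -1.02 ± 0.26 (adjusted p = 0.00501) at ZT16. The ZT16 call ended without the mice numbered 2 (adjusted p = 0.119). Pfkfb3 was higher under DRF at ZT4 by 0.75 ± 0.26 (adjusted p = 0.0346), a call that ended without any of 5 single libraries (adjusted p up to 0.139, without NRF ZT4 replicate 1). The difference in rhythm-adjusted mean, lower under DRF, was -0.38 ± 0.11 (adjusted p = 0.0333), lost without any of 7 single libraries (adjusted p up to 0.059, without NRF ZT12 replicate 4) and on the deposited scale.

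Pfkfb1 (chrX:150588229-150643878, plus strand), the form of liver and muscle, peaked at ZT16 under both regimens. The mice held 21.8, 18.1, 15.6 and 16.2 scaled counts at DRF ZT16 and 12.8, 15.3, 14.2 and 13.3 at NRF ZT16. The lowest NRF groups were ZT8 with 7.88, 8.26, 7.42 and 7.97 and ZT4 with 9.65, 7.51, 8.11 and 7.89, all below every NRF mouse of ZT12, ZT16 and ZT20. The lowest DRF group means were those of ZT0, ZT8 and ZT24, with ZT4 above them: 9.28, 11.1, 9.94 and 11.7 at ZT0, 13.2, 13.1, 12.5 and 12.6 at ZT4 and 9.07, 10.1, 14.3 and 9.72 at ZT8.

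Fitted Pfkfb1 peaks were ZT 14.9 ± 0.775 h under DRF (adjusted p = 0.000284) and ZT 17.1 ± 0.535 h under NRF (adjusted p = 2.84e-06), only 2.24 ± 0.942 h apart. The difference between the rhythms missed the threshold (adjusted p = 0.0882) and passed it when any of 4 single libraries was left out (lowest 0.0304, without DRF ZT8 replicate 1). The rhythm-adjusted mean was higher under DRF by 0.25 ± 0.05 (adjusted p = 0.0017). DRF was higher at ZT4 by 0.58 ± 0.12 (adjusted p = 0.000222), at ZT8 by 0.39 ± 0.12 (adjusted p = 0.0195) and at ZT16 by 0.34 ± 0.12 (adjusted p = 0.0457). The ZT8 call ended without DRF ZT8 replicate 3 (adjusted p = 0.176) or NRF ZT8 replicate 3 (0.0575). The ZT16 call ended without any of 5 libraries (adjusted p up to 0.215, without DRF ZT16 replicate 1) and with the deposited values, another scaling, a pseudocount of 0.1, the replicate block or the length correction. Pfkfb1 under DRF was also the only member with a 12-h component (amplitude 0.22, adjusted p = 0.00609), against 4.79% of all genes under DRF, and no member had one under NRF, against 2.04%. That call was lost on the deposited scale and without the mice numbered 1, 2 or 4.

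Pklr (chr3:89136142-89146784, plus strand) had its highest DRF mean at ZT4 and its highest NRF mean at ZT20, 4 h and 8 h into feeding. The 4 mice held 49.5, 56.9, 53.6 and 52.7 scaled counts at ZT0, 98.1, 81.7, 83.1 and 93.6 at ZT4, 68.0, 62.6, 123 and 76.7 at ZT8 and 97.8, 63.6, 92.7 and 65.5 at ZT12. Under NRF they held 56.9, 53.5, 33.4 and 41.4 at ZT4, 40.9, 41.1, 61.3 and 39.1 at ZT8 and 75.2, 109, 53.0 and 88.9 at ZT20. All DRF mice at ZT4 and ZT8 exceeded all NRF mice of the same time, while the NRF mice of ZT20 overlapped those of ZT4 and ZT8.

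DRF minus NRF for Pklr was 0.96 ± 0.26 (adjusted p = 0.00571) at ZT4 and 0.82 ± 0.26 (adjusted p = 0.0284) at ZT8. The ZT4 call ended without the mice numbered 4 (adjusted p = 0.0755). The ZT8 call ended without any of 4 libraries (adjusted p up to 0.169, without DRF ZT8 replicate 3), on the deposited scale (0.0564) and without the mice of any 1 number (up to 0.179). Fitted peaks were ZT 8.07 ± 1.20 h and ZT 17.9 ± 1.10 h, with log2 amplitudes of 0.31 ± 0.10 and 0.33 ± 0.11. The rhythms differed (adjusted p = 0.00262). Each rhythm alone was near the threshold: 0.0417 under DRF, lost without any of 17 single libraries (adjusted p up to 0.128, without DRF ZT8 replicate 3), and 0.0317 under NRF, lost without any of 8 (adjusted p up to 0.0876, without NRF ZT20 replicate 2). The DRF rhythm was also lost on the deposited scale (0.362), with median-of-ratios scaling (0.0526), by the exact Kendall rank test (0.0648) and without the mice of any 1 number (up to 0.162), and the NRF rhythm in 4 of 15 settings.

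Mlxipl (chr5:135089890-135138382, plus strand) was lower under DRF early in the light phase and higher at ZT8. At ZT0 the mice held 55.3, 61.3, 51.9 and 51.9 scaled counts under DRF and 112, 90.1, 99.3 and 90.2 under NRF. At ZT4 they held 63.7, 62.1, 65.2 and 67.9 and 159, 91.7, 97.2 and 94.9, and at ZT8 108, 92.4, 129 and 112 and 82.2, 70.6, 86.3 and 73.0. DRF mice were all lower at ZT0 and ZT4 and all higher at ZT8. From ZT12 to ZT24 the DRF group means stayed between 73.3 and 84.7, and the highest NRF group mean was 108. At ZT20 and ZT24 all DRF mice were again below all NRF mice, at -0.40 ± 0.16 (adjusted p = 0.0914) and -0.41 ± 0.16 (adjusted p = 0.0749), of which ZT24 passed in 3 of 12 settings, the replicate block (0.0408) among them.

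DRF minus NRF for Mlxipl was -0.82 ± 0.16 (adjusted p = 0.000149) at ZT0, -0.73 ± 0.16 (adjusted p = 0.000558) at ZT4 and 0.49 ± 0.16 (adjusted p = 0.0323) at ZT8. The ZT8 call ended without any of 5 libraries (adjusted p up to 0.129, without DRF ZT8 replicate 3) and on the deposited scale. Fitted peaks were ZT 11.1 ± 1.30 h (adjusted p = 0.0237) and ZT 23.9 ± 1.12 h (adjusted p = 0.00476), and the rhythms differed (adjusted p = 0.000182). The DRF rhythm was lost without any of 3 single libraries (adjusted p up to 0.0551, without DRF ZT8 replicate 3). It was also lost in 5 of 15 settings (adjusted p up to 0.135): the deposited scale, the linear scale, the exact Kendall rank test and without the mice numbered 3 or 4. The NRF rhythm was lost without the mice numbered 4 (adjusted p = 0.0907). The rhythm-adjusted mean difference of -0.18 ± 0.07 (adjusted p = 0.154) did not pass.

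Txnip (chr3:96557957-96561883, plus strand) was high in the fasting phase under DRF. The mice held 23.2, 35.6, 34.0 and 32.9 scaled counts at ZT16 and 25.4, 43.2, 26.2 and 29.8 at ZT20, against 17.0, 18.5, 14 and 15.9 at ZT4 and 14.6, 11.9, 14.4 and 14.5 at ZT8. Under NRF they held 23.7, 21.6, 25.9 and 22.1 at ZT8 and 17.2, 23.9, 36.0 and 23.7 at ZT12, against 14.8, 20.4, 9.37 and 18.8 at ZT16 and 14.6, 19.7, 13.8 and 17.5 at ZT20. All DRF mice exceeded all NRF mice at ZT16, ZT20 and ZT24, and all fell below them at ZT8.

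DRF minus NRF for Txnip was 0.98 ± 0.19 (adjusted p = 0.000177) at ZT16, 0.86 ± 0.19 (adjusted p = 0.000802) at ZT20, 0.60 ± 0.19 (adjusted p = 0.0236) at ZT24 and -0.71 ± 0.19 (adjusted p = 0.00668) at ZT8. The ZT24 call ended without any of 4 libraries (adjusted p up to 0.11, without DRF ZT24 replicate 1). The ZT8 call ended without the mice numbered 4 (adjusted p = 0.061). Fitted peaks were ZT 18.7 ± 0.463 h and ZT 8.86 ± 0.846 h, 9.86 ± 0.964 h apart. Log2 amplitudes were 0.58 ± 0.08 under DRF (adjusted p = 2.75e-07) and 0.34 ± 0.08 under NRF (adjusted p = 0.000793), and the rhythms differed (adjusted p = 1.22e-08).

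**Figure D2:**
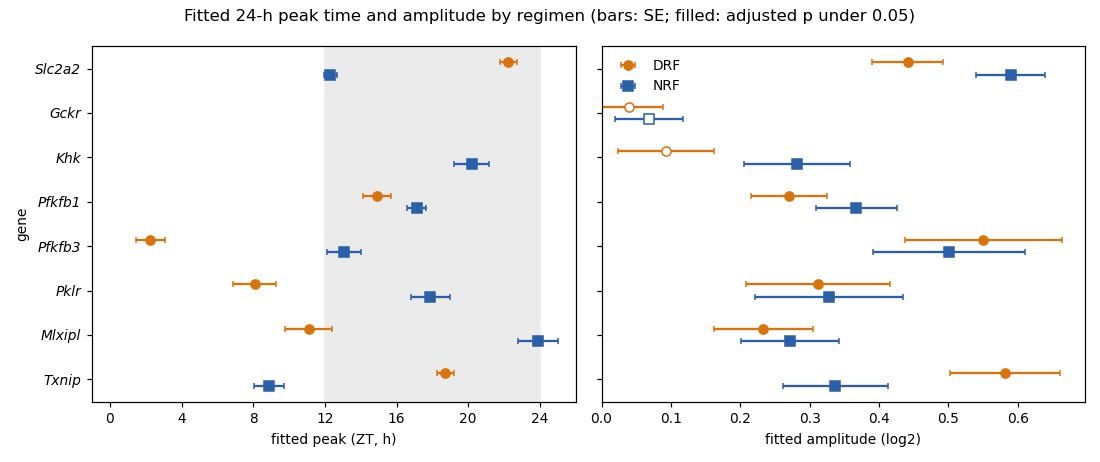
Fitted 24-h peak time (left, ZT in hours, grey for the dark phase) and fitted log2 amplitude (right) of the 8 genes, with SE bars, DRF in orange circles and NRF in blue squares. Filled marks had a rhythm at adjusted p under 0.05, open marks did not, and peaks are drawn for called rhythms only. The peaks of Slc2a2, Pfkfb3, Pklr, Mlxipl and Txnip lie between 9.82 and 11.2 h apart between regimens, those of Pfkfb1 2.24 h.

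Among the 6 genes rhythmic under both regimens, 5 had peaks between 9.82 and 11.2 h apart: Pklr, Txnip, Slc2a2, Pfkfb3 and Mlxipl. Over the 5867 genes with both rhythms the median distance was 8.14 h, with quartiles at 4.11 and 10.5 h. Pfkfb1, at 2.24 h, lay below the lower quartile. Mean levels differed for 4 of the 8 genes, higher under DRF for Slc2a2, Khk and Pfkfb1 (4.11% of all genes) and lower for Pfkfb3 (2.63%), against 6.74% of all genes in either direction. The median over the 8 genes was 0.15 on the log2 scale, where the median of all genes tested was -0.00175. Neither the shares nor the medians compare genes of like level.

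Read by clock time, the differences between regimens were most frequent at ZT4 and ZT8. At ZT4 6 of 8 genes passed (20.2% of all genes), with only Gckr and Txnip missing, and at ZT8 6 passed (12.9%), with Gckr and Pfkfb3 missing. At ZT16 3 passed (15%). At ZT0 (16%), ZT12 (15.1%), ZT20 (13.7%) and ZT24 (14%) 2 passed each. Of these 23 calls, 16 were higher and 7 lower under DRF, and 16 of the 23 held without any single library. At ZT4 the median absolute difference of the 8 genes was 0.61 on the log2 scale, against 0.11 for all genes tested. Only 6666 of the 25386 genes tested had a mean of at least 10 scaled counts, as all 8 members did. Differences of lower genes are pressed towards 0 on the scale of the tests, so these medians do not compare genes of like level.

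Read by feeding time, 7 of 48 comparisons passed, beside 23 of 56 by clock time, and both readings use the same libraries. Per comparison, 1.56% to 17.1% of all genes passed by feeding time and 12.9% to 20.2% by clock time. Whether the members differ from all genes in this was not tested. The readings differ in the rank correlation with gene length given above. Groups of the same ZT shared its sign, as at ZT4 (-0.222 under DRF, -0.0629 under NRF). All feeding-time pairs but the end of feeding had opposite signs, as DRF ZT4 against NRF ZT16 (0.128). Its part was not tested beyond the length correction. Hours were counted from lights on for DRF and from lights off for NRF, the starts of the phases in which the labels place the food, since the hours of food access are not given in the sources used here. None of the 8 genes passed at feeding onset (DRF ZT0 against NRF ZT12), after 4 h of feeding or after 8 h of feeding, by limma at adjusted p under 0.05, where 2.68%, 14.5% and 11.6% of all genes did. At unadjusted p under 0.05 these comparisons had 1, 3 and 1 of the 8. At the end of feeding 1 gene passed (1.56%), after 4 h of fasting 4 (17.1%) and after 8 h of fasting 2 (16.4%). All 7 of these differences were higher under DRF. These values use DRF ZT0 and NRF ZT24. With the other day of sampling, no member passed at onset (DRF ZT24 against NRF ZT12, 8.17% of all genes; 2 at unadjusted p under 0.05). At the end of feeding (DRF ZT12 against NRF ZT0, 10%), both Pfkfb1, at 0.38 ± 0.12 (adjusted p = 0.0316), and Slc2a2 passed. Slc2a2 then differed by 0.55 ± 0.13 (adjusted p = 0.00459) in place of 0.33 ± 0.13 (adjusted p = 0.23).

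**Figure D3:**
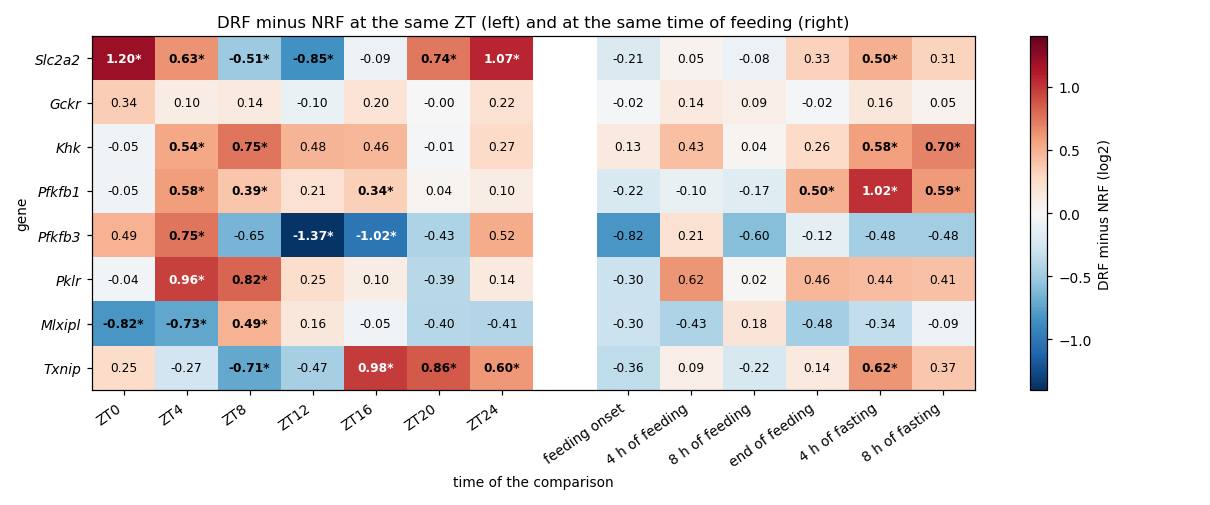
DRF minus NRF on the log2 scale for the 8 genes, at the same ZT (left, 7 times) and at the same time of feeding (right, 6 times). Red is higher and blue lower under DRF, and bold values with an asterisk had an adjusted p under 0.05. There are 23 such values among 56 on the left and 7 among 48 on the right. Per column, 12.9% to 20.2% of all genes passed on the left and 1.56% to 17.1% on the right. The calls on the right belong to Slc2a2, Khk, Pfkfb1 and Txnip.

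Pfkfb1 accounted for 3 of the 7: 0.50 ± 0.12 (adjusted p = 0.0165) at the end of feeding, 1.02 ± 0.12 (adjusted p = 8.18e-08) after 4 h of fasting and 0.59 ± 0.12 (adjusted p = 0.000336) after 8 h. After 4 h of fasting the DRF mice held 21.8, 18.1, 15.6 and 16.2 scaled counts and the NRF mice 9.65, 7.51, 8.11 and 7.89, with a wide gap between them. Khk was higher under DRF after 4 h of fasting by 0.58 ± 0.19 (adjusted p = 0.0342) and after 8 h by 0.70 ± 0.19 (adjusted p = 0.00989). Slc2a2 differed by 0.50 ± 0.13 (adjusted p = 0.00591) and Txnip by 0.62 ± 0.19 (adjusted p = 0.0181) after 4 h of fasting, the latter with overlapping groups. The Slc2a2 call ended without the mice numbered 4 (adjusted p = 0.106).

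Of these 7 calls, 3 held without any single library. The Pfkfb1 calls after 4 h and 8 h of fasting also held in every planned setting. Leaving out all mice of a number ended the calls of Pfkfb1 at the end of feeding (1, 2 or 4) and Khk after 4 h of fasting (any number). It also ended those of Khk after 8 h and Txnip (each 2 or 4). Pfkfb1 at the end of feeding was lost on the deposited scale too. Single libraries ended those of Pfkfb1 at the end of feeding (DRF ZT12 replicate 4, adjusted p = 0.0536, or NRF ZT24 replicate 2, 0.0754), of Khk after 4 h of fasting (any of 6, adjusted p up to 0.111, without NRF ZT4 replicate 3), of Khk after 8 h (DRF ZT20 replicate 3, 0.0686) and of Txnip (any of 4, adjusted p up to 0.093, without NRF ZT4 replicate 1). Mlxipl after 4 h of feeding, at -0.43 ± 0.16 (adjusted p = 0.0566), passed under 6 of 12 alternative settings, the length correction and the deposited scale among them. Averaged over 6 times, the absolute log2 difference of Slc2a2 was 0.67 at the same ZT and 0.25 at the same time of feeding, that of Txnip 0.59 and 0.30, that of Pfkfb3 0.78 and 0.45, and that of Mlxipl 0.44 and 0.30. It was 0.42 and 0.38 for Pklr, 0.38 and 0.36 for Khk, and 0.15 and 0.08 for Gckr. Pfkfb1 was the one member with the smaller value at the same ZT, 0.27 against 0.43, and the medians were 0.13 and 0.13 for all genes tested and 0.21 and 0.19 for genes with a mean of at least 10 scaled counts.

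**Figure D4:**
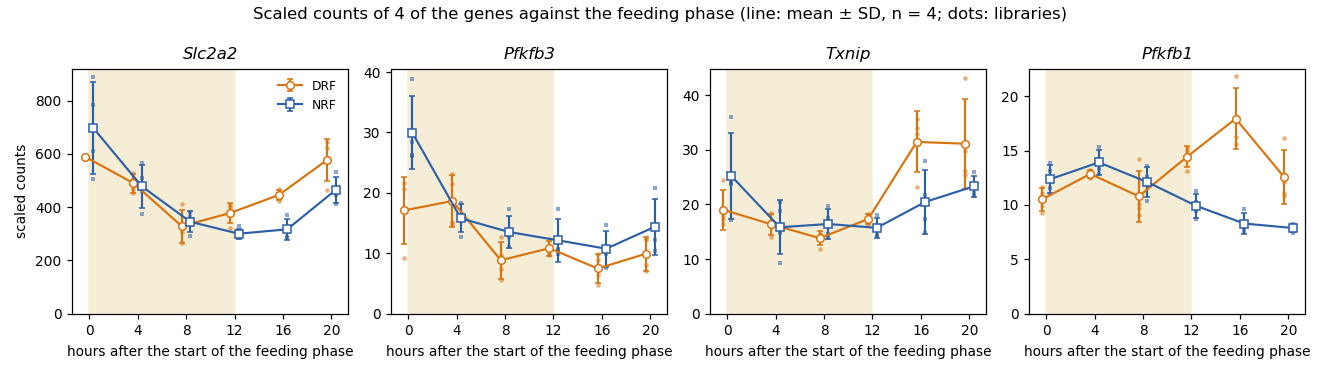
Scaled counts (vertical axes, from 0) of Slc2a2, Pfkfb3, Txnip and Pfkfb1 against hours after the start of the feeding phase (shaded), ZT0 for DRF and ZT12 for NRF, with group means and SD (n = 4) and single libraries as small marks. The Slc2a2 means after 8 h were 328 (DRF) and 345 (NRF), whereas Pfkfb1 16 h after the start stood at 17.9 and 8.29.

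ZT0 and ZT24 are the same clock time a day apart, and the 8 genes were compared between them within each regimen. No member passed under DRF (3.24% of all genes) or under NRF (7.99%) by limma at adjusted p under 0.05. At unadjusted p under 0.05, 1 did under DRF and 1 under NRF. Mlxipl under DRF was nearest, with 55.3, 61.3, 51.9 and 51.9 scaled counts at ZT0 and 90.3, 76.8, 82.9 and 70.5 at ZT24, which did not overlap. The difference of 0.53 ± 0.16 (adjusted p = 0.0508) passed in 6 of 12 alternative settings, the length correction among them. It did not pass without the mice of any 1 number. Slc2a2 under NRF did not overlap either, at 0.23 ± 0.13 (adjusted p = 0.355). On the deposited scale it passed (0.00049), as did Gckr (0.00237) and Mlxipl (0.0246) under NRF.

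The other genes of these pathways were taken from lists of known function, chosen with earlier results of these data known. Of 51 listed genes outside the 8, 32 were rhythmic under DRF, 37 under NRF and 39 had rhythms that differed, where 34.8%, 43.1% and 38.4% of all genes did. The lists below also hold the members of their class. Counts of rhythm differences in them stand beside the 38.4% of all genes, and counts at ZT4, ZT8 and ZT20 beside 20.2%, 12.9% and 13.7%. All 6 genes of fructose metabolism (Khk included) differed in rhythm and all 6 were higher under DRF at ZT4, with a median of 0.90 on the log2 scale where all genes had -0.00324. Slc2a5, the fructose transporter, had the smallest p: 11 ± 2.47 scaled counts at DRF ZT0 against 1.46 ± 0.306 at NRF ZT0, and 1.17 ± 0.555 against 8.19 ± 1.56 at ZT12 (adjusted p of the rhythm difference 2.61e-18). Its peaks, ZT 23.3 and ZT 10.5, stood beside ZT 22.2 and ZT 12.3 for Slc2a2. Sord, which makes fructose from sorbitol, stood at 4066 ± 182 and 2324 ± 209 at ZT4 (adjusted p of the rhythm difference 2.73e-11).

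Of 8 tested genes of the glucose transporter family (Slc2a), Slc2a2 included, 6 differed in rhythm, Slc2a8 among them (adjusted p = 2.07e-06). The 6 also hold Slc2a5, counted above with fructose metabolism. Another of them, Slc2a4, was near the floor, with group means from 0.0744 (NRF ZT4) to 0.273 (DRF ZT4) scaled counts. Hk2, the muscle-type hexokinase, was rhythmic under DRF only, and its rhythms differed (adjusted p = 0.00197). Of 8 phosphofructokinases and regulators, Pfkfb1 and Pfkfb3 included, 4 differed, a share near that of all genes, with Pfkm (adjusted p = 1.43e-07), the muscle-type subunit, and Tigar (adjusted p = 0.000492), a fructose-bisphosphatase, the strongest outside the members. Of 13 other glycolytic enzymes, Pklr included, 11 differed, and 7 of the 13 passed at ZT4, all higher under DRF, with a median of 0.37. Pgk1, a kinase that yields ATP, stood at 389 ± 20.4 against 278 ± 20.4 at ZT8 (adjusted p of the rhythm difference 1.19e-06), and Pkm, the pyruvate kinase of other tissues, had peaks at ZT 10.8 and ZT 0.989 (adjusted p = 2.64e-06).

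Of 4 genes in the list of ChREBP and related factors, Mlxipl included, 3 differed in rhythm. Mlx, the obligate partner, peaked at ZT 7.45 ± 0.873 h and ZT 18.6 ± 0.737 h (adjusted p = 7.35e-06), beside ZT 8.07 and ZT 17.9 for Pklr and ZT 11.1 and ZT 23.9 for Mlxipl, and Max differed as well (adjusted p = 0.028). Of 17 tested genes known as ChREBP targets (Pklr and Txnip included), 16 differed in rhythm. At ZT8 14 of the 17 passed, 11 higher and 3 lower under DRF, with a median of 0.94. At ZT20 11 passed, 4 higher and 7 lower, with a median of -0.24. At the same time of feeding none of the 17 passed at onset, after 4 h, after 8 h or at the end of feeding (limma, adjusted p under 0.05), where 2.68%, 14.5%, 11.6% and 1.56% of all genes did. At unadjusted p under 0.05 they were 2, 3, 3 and 2. After 4 h of fasting 7 passed (17.1% of all genes) and after 8 h 3 (16.4%, a share near that of the list), all higher under DRF.

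Acly, which makes cytosolic acetyl-CoA, stood at 855 ± 164 scaled counts at DRF ZT8 against 238 ± 60.5 at NRF ZT8, and at 283 ± 38.0 against 1098 ± 269 at ZT20 (adjusted p of the rhythm difference 4.99e-14). Pnpla3, a lipid-droplet protein, stood at 16 ± 4.74 against 2.25 ± 0.942 at ZT8 and 2.82 ± 1.56 against 31.6 ± 9.11 at ZT20 (adjusted p 3.58e-14). Txnip ran against Acly and Pnpla3, being low at DRF ZT8 and high at DRF ZT20. Other listed targets went with Txnip, which was among the 3 lower under DRF at ZT8 and the 4 higher at ZT20.

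The genes most like each member were found by the Pearson correlation of the 14 group means, among 6666 genes with a mean of at least 10 scaled counts, as a description. Slc2a2 was most like Slc1a2, a glutamate transporter (r = 0.98), Bnip3 (0.96) and Pdcd6 (0.95). Pklr was most like Gpi1, the glycolytic isomerase (0.92), Tkfc, the triokinase of fructose metabolism (0.89), and Prdx6 (0.84). Txnip was most like Adcy9 (0.92), Retreg1 (0.92) and Osbpl1a (0.92). Mlxipl was most like Dlc1 (0.92), AC149090.1 (0.86) and Tars (0.83). Pfkfb3 was most like Rnf145 (0.90), Morc3 (0.88) and Myo10 (0.85), and Pfkfb1 most like Nt5dc3 (0.89), Gstt1 (0.88) and Atp5a1 (0.87). The 3 nearest to Khk, Gm7336 (0.95), Gm2606 (0.94) and Gm5559 (0.93), are annotated as processed pseudogenes, and the nearest to Gckr were Alg5, Ptgr2 and Hibch (0.83, 0.82 and 0.81). Tkfc and Osbpl1a used an exon length searched on the values.

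Among the members themselves Slc2a2 and Mlxipl ran most oppositely over the 14 group means (r = -0.80), which share libraries and scaling.

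Transcript values exist for 44 annotated isoforms of the 8 genes on the deposited scale, which is close to logarithmic, so they are given as a description without a test. They are divided by transcript lengths that could not be settled for Mlxipl, Pklr and Pfkfb1, so levels of different isoforms of these genes are not comparable, and only the same isoform is compared between groups. Pklr has a liver start and an upstream start used in red cells. Pklr-202, from the liver start at position 89136572 of chromosome 3, held 42.5 ± 1.04 deposited units at DRF ZT4 and 36.1 ± 2.41 at NRF ZT4 (SD, n = 4). Pklr-205, from the upstream start at 89136174, held at most 5.92 in any library, with a median of 1.85. The erythroid markers, whose means differed between the regimens, are the values that bear on it, and their part was not tested.

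Mlxipl-210 begins at position 135089890 of chromosome 5, upstream of 7 isoforms that start between 135106891 and 135106918, and is a short processed transcript. It ran from 18.4 to 158 deposited units over the 56 libraries with a median of 93.6, with group means from 74.5 ± 35.2 at NRF ZT12 to 113 ± 30.2 at DRF ZT20 (SD, n = 4), groups that overlapped. The longest isoform, Mlxipl-201, stood at 26.8 ± 0.860 at DRF ZT0 against 30.9 ± 0.492 at NRF ZT0 and 31.2 ± 0.292 against 29.9 ± 0.838 at ZT8. Slc2a2-201 stood at 27.3 ± 0.185 and 23.3 ± 0.557 at ZT0. Pfkfb1-202 stood at 65.8 ± 1.65 at DRF ZT16 and 48.3 ± 2.94 at NRF ZT4. The Pfkfb3 isoforms spread widely between mice, and Pfkfb3-220, from the most upstream start, ran from 0 to 15.2 deposited units.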

How the data were processed

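RNA was sequenced from 56 livers in 14 groups of 4 mice, with no batch or date in the labels. The submitters' processing notes name CASAVA 1.8 and featureCounts 1.5.0-p3 with the builds mm10 and GRCm38.p6; the aligner is not given in the sources used here. The authors deposited gene and transcript values under the name TPM that are not linear, so they were treated as a score: a deposited score times the exon length was a logarithm of 1 plus a whole count times a constant of the library. That relation was inverted for 25386 of 25415 genes to give scaled counts, and the other 29 could not be rebuilt. All member values up to 300000 counts came within 0.2 of a whole number, a tolerance that 40 percent of values meet by chance. These were 44 of the 56 values of Slc2a2 and all 56 of each other member. Pfkfb1, Pfkfb3, Pklr and Txnip also passed a check at 0.05, made only on values up to 20000 counts. GENCODE lengths and symbols matched 24247 of 24268 Ensembl identifiers. A filter at a mean deposited score of 0.1 removed 0 genes.

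Scaled counts were tested as log2(scaled count + 1), so fold changes of low genes are understated, with limma 3.58.1 in R 4.3.3 over all 56 libraries and Benjamini-Hochberg adjustment over all genes. Models held either a mean, cosine and sine of 24 h per regimen, with 12-h terms added for the 12-h test, or 14 group means. The threshold was 0.05. The study's own rhythm software was not used here. The rebuilding of counts, the rank test and the limma tests of rhythm, mean and group difference were tried on simulated data. The fitted peaks and amplitudes with their SE, the overlaps, the list counts and the motif search were not. Alternatives were the deposited scale, another scaling, pseudocount, filter, variance model, replicate block, length correction, rank tests and left-out replicates. Leaving out each library in turn was added after seeing the data. Members and lists were chosen with earlier results of these data known. Besides the members, the genes named were the 2 of each pathway list with the smallest p of the rhythm difference and the 3 most like each member; 1 gene under this rule is not reported here. Cell type lists were summed per library; those of the other cell types are in ranges: Kupffer cell and macrophage 651 to 970 scaled counts over group means, stellate cell and fibroblast 605 to 769, endothelial cell 378 to 482, cholangiocyte 25 to 33, neutrophil 1.97 to 3.99 and lymphocyte 1.06 to 2.71. Circular RNA values were not used.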

Additional observations from a re-analysis of the deposited data

Results flagged for a closer look

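In groups of 4 mice, a single mouse stood far from the other 3 in 6 of the 112 groups of the 8 genes, where chance at 5 percent gives 5.6. Pfkfb3 was 17.4 scaled counts in NRF ZT24 replicate 3, against 9.92 to 10.8 in the others. Pklr was 34.6 in DRF ZT24 replicate 1, against 74.8 to 77.5, and 61.3 in NRF ZT8 replicate 3, against 39.1 to 41.1. Mlxipl was 159 in NRF ZT4 replicate 1, against 91.7 to 97.2, and 141 in NRF ZT24 replicate 4, against 96.5 to 97.8. Txnip was 11.9 in DRF ZT8 replicate 2, against 14.4 to 14.6.

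The 24-h rhythm differed between DRF and NRF, by the limma test of the difference itself, for Slc2a2 (adjusted p = 3.99e-16), Txnip (1.22e-08), Pfkfb3 (1.08e-06), Mlxipl (1.82e-04), Pklr (0.00262) and Khk (0.0204).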

How the results depend on the processing

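No called member result changed direction under any alternative; values that did not pass could change sign when a library was left out. Of 54 called member results, 28 kept their call in every planned setting and without any single library. Of the member results recomputed in planned settings, 1949 kept their side of the threshold, 88 lost a call and 27 gained one. On the deposited scale 2 members differed in rhythm-adjusted mean in place of 4, 4 member comparisons of ZT24 with ZT0 passed in place of 0, and 0 members had a 12-h component in place of 1. ZT24 against ZT0 gave 1 call, Mlxipl under DRF, with median-of-ratios scaling, a pseudocount of 0.1, a mean of at least 1 scaled count, the length correction or the replicate block. Leaving out all mice of a number or any single library gave 4 to 6 rhythms under DRF, 4 to 7 under NRF, 5 to 7 rhythm differences, 2 to 5 differences in mean, 13 to 24 calls at the same ZT, 3 to 8 at the same time of feeding, 0 to 1 for ZT24 against ZT0 and 0 to 1 for the 12-h component. The replicate numbers did not pair the mice: deviations of same-numbered libraries correlated at 0.00427 on average (-0.375 to 0.304), against -0.00139 for other numbers. With the replicate block, 8 calls were made at the same time of feeding, with Mlxipl after 4 h of feeding gained, and 23 at the same ZT, with Pfkfb1 at ZT16 lost (0.0527) and Mlxipl at ZT24 gained (0.0408). Over all genes, the deposited scale moved the calls from 680 to 318 at feeding onset, 397 to 187 at the end of feeding, 822 to 1657 (DRF) and 2028 to 5916 (NRF) for ZT24 against ZT0, and 1216 to 441 (DRF) and 517 to 173 (NRF) for the 12-h component. The length correction moved them from 3670 to 10540 after 4 h of feeding, 2934 to 9518 after 8 h, 4152 to 8982 after 8 h of fasting, and 822 to 6332 (DRF) and 2028 to 8573 (NRF) for ZT24 against ZT0. The cause of these moves was not tested. Depth could not be read as sequenced reads, so the counting error is unknown.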
